A study of Mus musculus with 6 samples.

Results

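The genes followed here through the Treg cell transcriptome were 10, of which 5 encode secreted or surface mediators of suppression (Il10, Ebi3, Il12a, Fgl2 and Lrrc32) and 5 encode granule proteins of cytotoxic lymphocytes (Gzmb, Gzma, Gzmk, Prf1 and Nkg7). They were picked by symbol from the 24421 genes of the count matrix, and all 10 were found there. The libraries came from CD4+YFP+ Treg cells sorted from spleens of C57BL/6 females aged 8 to 11 weeks, without treatment, with 3 mice in each group and 1 library per mouse. WT mice carried Foxp3Cre alone, and KO mice carried Foxp3Cre together with floxed miR-142 alleles (miR-142fl/fl). The Cre is fused to YFP and driven by the Foxp3 promoter, so that it marks and deletes in cells that turn Foxp3 on, and the WT mice carry it too. KO mice develop a fatal autoimmune disease, so the deletion within Treg cells and life in an inflamed host cannot be told apart in these libraries.

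Treg cells hold other immune cells in check by several routes. Interleukin 10 (Il10) is a secreted inhibitory cytokine, and Ebi3 and Il12a encode the paired chains of interleukin 35. Fgl2 is a fibrinogen-like protein that Treg cells secrete and that macrophages also make, and Lrrc32 encodes GARP, which holds latent TGFβ on the Treg cell surface. Granule killing works through perforin (Prf1), which opens target membranes, and through the granzymes (Gzmb, Gzma and Gzmk), proteases that enter through them. Nkg7 is a granule membrane protein of NK and T cells. In the mouse, these granule genes are typical of NK cells and activated CD8 T cells, and granzyme B is also induced in activated Treg cells.

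The deleted gene makes a pair of mature miRNAs from opposite arms of 1 hairpin on chromosome 11 (plus strand). The RefSeq sequences (GRCm38.p6) are printed 5′ to 3′ with the seed, bases 2 to 8, in capitals, because the 3′ UTRs of the 10 genes were searched for its complement. The 5p arm lies at chr11:87756867-87756887 and the 3p arm at chr11:87756903-87756925.
mmu-miR-142a-5p: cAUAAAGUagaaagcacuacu
mmu-miR-142a-3p: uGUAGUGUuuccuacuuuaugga

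The search covered the transcript strand of the annotated 3′ UTRs (GENCODE vM21, GRCm38) for ACTTTAT or CTTTATA (5p) and for ACACTAC or CACTACA (3p). The second motif of each pair matches bases 2 to 7 followed by an A. None of the 10 genes held either 3p motif, which occurred in 12.2% of the 10780 tested genes with a 3′ UTR. Il10 held 1 5p motif and Fgl2 held 4. At least 1 5p motif was present in 23.5% of those genes, and 4 or more in 0.557%. The 3′ UTR of Fgl2 was also longer than most, at 2414 bases against a median of 1185 over the tested genes. Lrrc32 held 1 copy of AACACTA, the match to bases 3 to 9 of the 3p arm. This motif occurred in 10.3% of the genes and was added to the search after the other motifs. The copy in Lrrc32 is followed by an A and so reads AACACTAA. The authors give AACACTAA as a 3p seed match, and mutated it in their Ifngr2 and Hif1a 3′ UTR reporters. All 6 sites lie in the 3′ UTR on the plus strand and are printed with the motif in capitals, since they are all the matches found in the 3′ UTRs of these genes.
Il10, chr1:131024537-131024543 (5p): ttggggacACTTTATagtattta
Fgl2, chr5:21377015-21377021 (5p): tttcactcACTTTATtcttgtga
Fgl2, chr5:21377724-21377730 (5p): atgtaaatACTTTATctttgcac
Fgl2, chr5:21378008-21378014 (5p): taatgatcACTTTATtgctgaac
Fgl2, chr5:21378364-21378370 (5p): aagttaatCTTTATAtcta
Lrrc32, chr7:98501724-98501730 (3p, bases 3 to 9): actctgaaAACACTAatcaatgc
The 3′ UTRs of the other 7 genes held none of the motifs, and the 3′ UTR of Gzma holds 67 bases only. A match of letters is a description and does not show that a site is used.

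Total counts ranged from 13883069 to 24042994 per library, and values are given as CPM (counts scaled to a common library total), on which 3 counts make 0.125 to 0.216. Mir142b, the antisense annotation at the deleted locus, had 147, 101 and 105 counts in the WT libraries against 7, 5 and 5 in the KO libraries, and Mir142 itself had 0 in every library. Foxp3 lay between 562 and 604 CPM in WT and between 621 and 713 in KO, and the summed CPM of 7 Treg markers between 5046 and 5642 in WT and between 6548 and 7579 in KO. KO replicate 1 stood apart from the rest. Its 10 monocyte and macrophage markers summed to 2022 CPM against 33.8 and 8.43 in KO replicates 2 and 3 and 7.36 to 11.2 in WT. Its 9 measured neutrophil markers summed to 859 CPM against 0.225 to 4.59 elsewhere, and its 8 B cell markers to 281 CPM against 8.43 to 43.1. The sums for conventional dendritic cells (134 CPM), plasmacytoid dendritic cells (369 CPM), plasma cells (31.9 CPM) and basophils and mast cells (3.98 CPM) were likewise highest in that library, against at most 1.24, 66.7, 9.98 and 2.09 CPM in the others. What part this material had in the values of that library was not tested. The 7 tested members, Gzma and Gzmk are each given with and without it, and the related lists by their counts and by the named genes' values. In a bulk library, more cells of a type and more RNA per cell cannot be told apart.

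**Figure D1:**
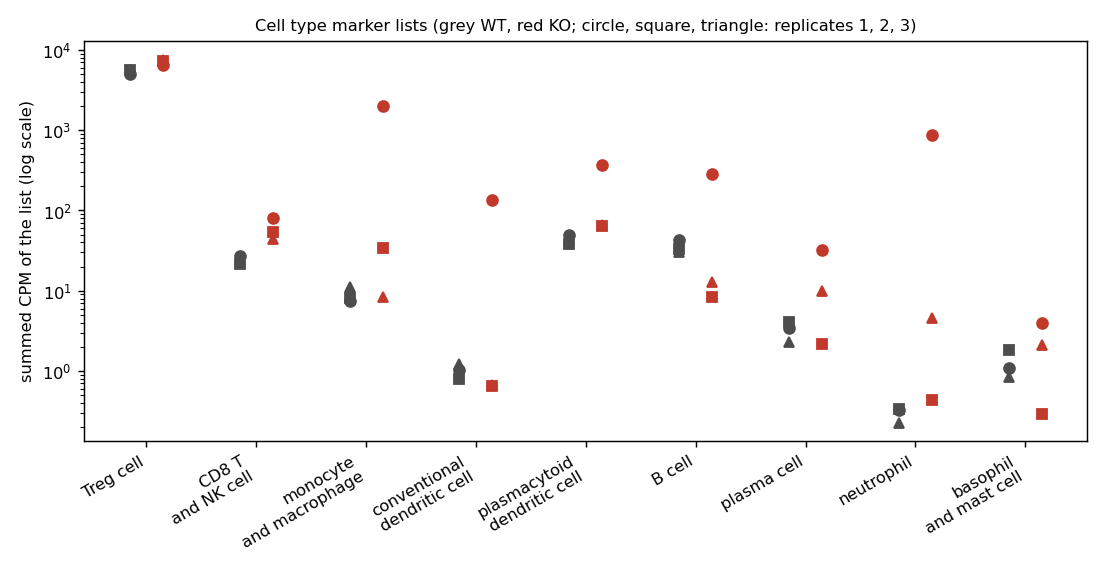
Summed CPM of 9 cell type marker lists (log axis) in 3 WT (grey) and 3 KO (red) libraries, 1 point per library. KO replicate 1 (red circle) is the highest of the 6 libraries for every list but that of Treg cells, with 2022 CPM for monocytes and macrophages and 859 CPM for neutrophils.

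Granzyme B, Nkg7 and Fgl2 rose in KO Treg cells, by 10.7-, 7.16- and 5.94-fold in the fit of all 6 libraries. Lrrc32 rose by 1.39-fold, a call that most alternatives did not keep. Perforin, Il10 and Ebi3 did not pass the test. Of the 7 members above 1 CPM in at least 3 libraries, and in fact in all 6, edgeR's quasi-likelihood F (QLF) test called 4 higher and 0 lower at an adjusted p (FDR) under 0.05. Among all 11658 genes tested, 11.6% were called higher and 7.27% lower. No member fell at an unadjusted p under 0.05 either, and DESeq2 called none lower. Scaled by library size alone, 1064 genes were higher and 1201 lower, against 1350 and 847 in the main fit, and the same 3 members with the large changes were called. Without KO replicate 1, and with the filter set at 2 libraries, 11.1% of genes were called higher and 7.14% lower, and 3 of the 7 members were called higher and 0 lower.

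**Figure D2:**
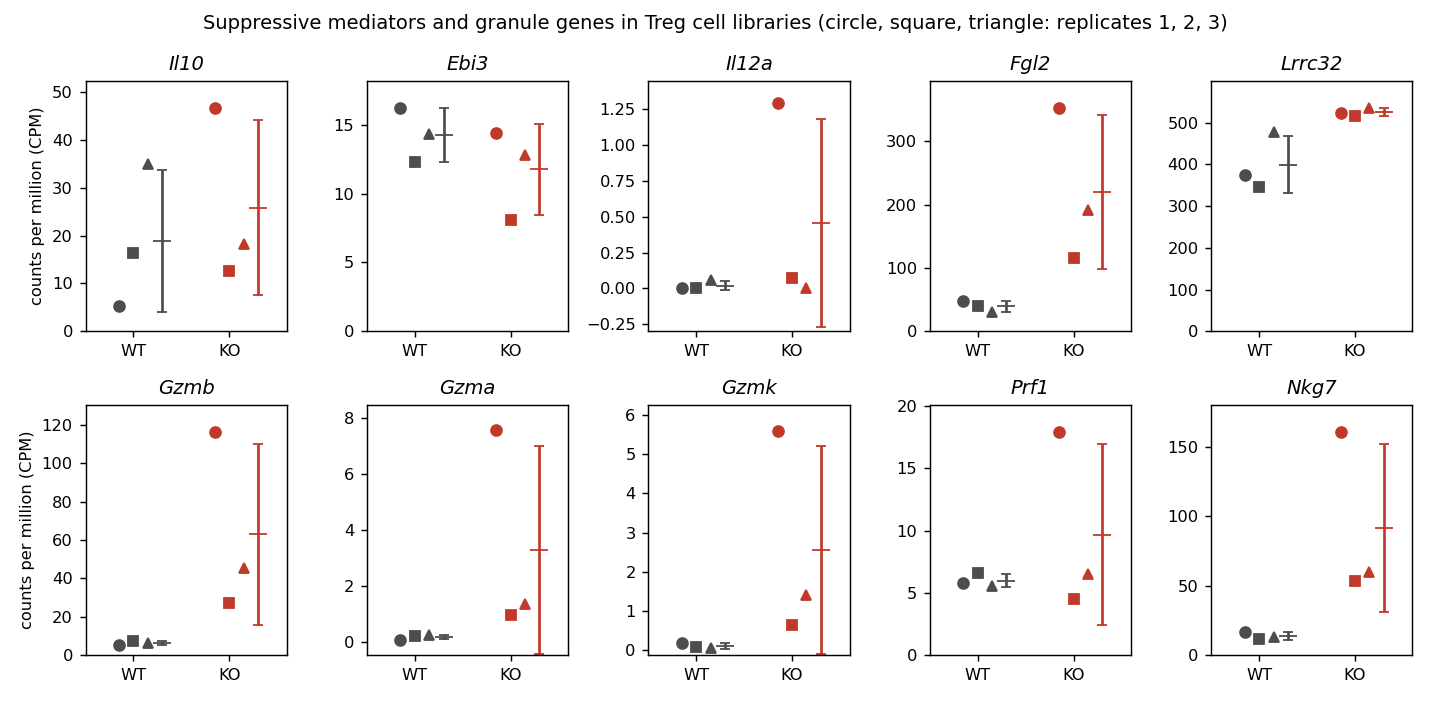
CPM of the 10 genes in each library (linear axes, 1 panel per gene), with the mean ± SD of 3 WT (grey) and 3 KO (red) libraries beside the points. For Fgl2, Lrrc32, Gzmb, Gzma, Gzmk and Nkg7 all KO libraries lie above all WT libraries, and KO replicate 1 (circle) is the highest library for every gene except Ebi3 and Lrrc32.

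Gzmb (chromosome 14, 56258838 to 56262260, minus strand) encodes granzyme B, which cleaves caspases in the target cell. Its values, in the order of replicates 1 to 3 used throughout, were 5.10, 7.07 and 6.47 CPM in WT against 117, 26.9 and 45.5 CPM in KO. All 3 KO libraries were above all 3 WT libraries, and the highest, KO replicate 1, held 3.22 times the mean of the other 2. The WT mean was 6.21 ± 1.01 CPM and the KO mean 63.0 ± 47.3 CPM (SD, n = 3), and the fitted log2 fold change was 3.42 (SE 0.54, FDR = 0.00691). It was 2.60 without KO replicate 1 (SE 0.24, FDR = 0.000476), and the call held whichever of the 6 libraries was left out. In counts, Gzmb went from 79, 170 and 115 to 2169, 374 and 675.

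Nkg7 (chromosome 7, 43437073 to 43438249, plus strand) was measured at 16.5, 11.1 and 13.0 CPM in WT, against 161, 53.0 and 59.4 CPM in KO. Again the groups did not overlap, and KO replicate 1 stood at 2.86 times the mean of the other KO libraries. The log2 fold change was 2.84 (SE 0.45, FDR = 0.00698), and 2.14 (SE 0.16, FDR = 0.000175) without that library. Nkg7 was called in every fit that left out 1 library, with log2 fold changes between 2.13 and 3.11.

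Prf1 (chromosome 10, 61297833 to 61304680, plus strand) encodes perforin, through which granzymes reach their substrates. Its WT libraries held 5.74, 6.57 and 5.57 CPM, and its KO libraries 18.0, 4.47 and 6.54 CPM. Only KO replicate 1 was above every WT library, and KO replicate 2 was the lowest of all 6. The log2 fold change of 0.78 (SE 0.48, 95% interval -0.35 to 1.91, FDR = 0.292) did not pass the test. It was -0.04 without KO replicate 1 (SE 0.24, FDR = 0.922), and the mean of the other 2 KO libraries was 0.923 times the WT mean, where that of Gzmb was 5.83 times and that of Nkg7 4.14 times.

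The unequal change of perforin and its granule partners was read within each library, as a ratio of CPM per kb of exon, a measure chosen after the values were seen and free of the scaling between libraries. Gzmb over Prf1 was 1.597, 1.936 and 2.090 in WT and 11.7, 10.9 and 12.5 in KO. This ratio was alike in the 3 KO libraries even though KO replicate 1 held far more of both transcripts. Its mean was 1.87 ± 0.252 in WT and 11.7 ± 0.834 in KO (SD, n = 3), a difference of 2.65 on the log2 scale (exact two-sided permutation p = 0.1, the smallest that 3 against 3 allows). Nkg7 over Prf1 was 8.13, 4.80 and 6.63 in WT and 25.3, 33.6 and 25.7 in KO, again with no overlap (exact permutation p = 0.1). Nkg7 over Gzmb overlapped between the groups, at 5.09, 2.48 and 3.17 in WT and 2.17, 3.09 and 2.05 in KO (exact permutation p = 0.2). With 3 libraries in each group no ratio could reach 0.05, and 3 ratios were compared.

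Gzma (chromosome 13, 113093825 to 113100981, minus strand) and Gzmk (chromosome 13, 113171608 to 113225908, minus strand) encode granzymes of tryptase type, which cut after basic residues. Neither exceeded 1 CPM in the 3 libraries that the filter asks for. Gzma had 1, 5 and 4 counts in WT and 141, 13 and 20 in KO, and Gzmk had 3, 2 and 1 counts in WT and 104, 9 and 21 in KO. In CPM, Gzma was 0.0645, 0.208 and 0.225 in WT and 7.58, 0.936 and 1.35 in KO. Gzmk was 0.194, 0.0832 and 0.0562 CPM in WT and 5.59, 0.648 and 1.42 CPM in KO. For both genes the KO libraries were all above the WT libraries, and WT values were at or near the worth of 3 counts. In an edgeR fit of 17585 genes without the filter, the log2 fold change of Gzma was 4.27 (SE 0.95, FDR = 0.0313) and that of Gzmk 4.55 (SE 0.94, FDR = 0.0249). KO replicate 1 held 6.63 times the mean of the other KO libraries for Gzma and 5.42 times for Gzmk. With that library left out of the unfiltered fit, Gzma had 2.73 (SE 0.61, FDR = 0.00953) and Gzmk 3.26 (SE 0.70, FDR = 0.00754).

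Markers of CD8 T and NK cells, which use these granule genes, were read beside them. All but 2 of the 10 listed markers had counts in some library, and the NK receptor genes Klra8 and Klra4 had 0 counts in all 6. Their sum was 21.6 to 27.1 CPM in WT and 79.9, 53.6 and 44.6 CPM in KO. Most of that rise was in Eomes, also an activator of granule genes, and the sum of the other 9 was 17.2 to 20.5 CPM in WT and 42.0, 13.6 and 15.2 CPM in KO. The sum without Eomes was taken after the values were seen. Cd8b1 was a large part of it, at 14.5, 11.7 and 13.3 CPM in WT and 16.6, 10.8 and 13.0 CPM in KO. Whether CD8 T or NK cells added to Gzmb and Nkg7 was not tested. Cd8a had 3, 9 and 10 counts in WT and 343, 26 and 10 in KO. In CPM that was 0.194, 0.374 and 0.562 in WT and 18.4, 1.87 and 0.675 in KO, with no overlap. Ncr1, which marks NK cells, had 0 counts in WT and 2, 1 and 0 in KO. Klrb1c, the NK1.1 receptor, was at 64, 94 and 43 counts in WT and 25, 4 and 12 in KO. The remaining listed markers were highest in KO replicate 1. Klrd1 had 1, 4 and 1 counts in WT and 30, 1 and 2 in KO. Klre1 had 1, 0 and 0 counts in WT and 20, 0 and 0 in KO, and Xcl1 had 24, 25 and 16 against 54, 7 and 9.

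Fgl2 (chromosome 5, 21372642 to 21378374, plus strand) had the smallest p of the members. Its CPM was 47.8, 39.6 and 30.5 in WT and 353, 115 and 192 in KO, with no overlap. From means of 39.3 ± 8.61 and 220 ± 121 CPM (SD, n = 3), its log2 fold change was 2.57 (SE 0.39, FDR = 0.00625). The monocyte and macrophage markers were highest in KO replicate 1, where Fgl2 was 2.29 times the mean of the other KO libraries. Without that library the log2 fold change was 2.05 (SE 0.22, FDR = 0.000903). In KO replicates 2 and 3 the macrophage sums were 33.8 and 8.43 CPM, against 7.36 to 11.2 CPM in WT. Fgl2 stood at 115 and 192 CPM in those libraries. What part macrophage RNA had in Fgl2 was not tested. Leaving out any 1 library kept the call, with values between 2.03 and 2.88.

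Lrrc32 (chromosome 7, 98489283 to 98502181, plus strand) was the most abundant member and the least affected by KO replicate 1. Its WT libraries held 376, 347 and 477 CPM, and its KO libraries 524, 516 and 536 CPM. The KO libraries were close to each other and all above the WT libraries, the highest of which was 477 CPM against 516 CPM in the lowest KO library. The log2 fold change of 0.48 (SE 0.13, FDR = 0.0443) passed the threshold narrowly. Without KO replicate 1 it was 0.47 (SE 0.15, FDR = 0.0629), and the call was kept in only 1 of the 6 fits that left out a library, the one without WT replicate 3.

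Il10 (chromosome 1, 131019845 to 131024974, plus strand) spread widely within both groups. Its CPM was 5.36, 16.4 and 34.9 in WT and 46.8, 12.5 and 18.4 in KO. Both the lowest and the second highest library were WT, and the highest was KO replicate 1. The means of 18.9 ± 14.9 and 25.9 ± 18.3 CPM (SD, n = 3) gave 0.53 on the log2 scale (SE 0.70, 95% interval -1.10 to 2.16, FDR = 0.632). That interval holds a 2-fold change in either direction. With KO replicate 1 left out, the value turned to -0.23 (SE 0.61, FDR = 0.826).

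Ebi3 (chromosome 17, 55952640 to 55957022, plus strand) lay at 16.2, 12.3 and 14.3 CPM in WT, against 14.4, 8.07 and 12.8 CPM in KO. The groups overlapped, and the log2 fold change was -0.19 (SE 0.23, 95% interval -0.72 to 0.34, FDR = 0.590). Without KO replicate 1 it was -0.37 (SE 0.22, FDR = 0.288). Exons of the antisense gene Gm16712 overlap Ebi3 over 270 bases, and reads of the pair cannot be told apart because counting ignored strand. Il12a (chromosome 3, 68690644 to 68698547, plus strand), which encodes the partner chain of Ebi3 in interleukin 35, had 0, 0 and 1 counts in WT and 24, 1 and 0 in KO. Outside KO replicate 1, a difference in Il12a was not detectable at this depth, and a fold change is not given.

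**Figure D3:**
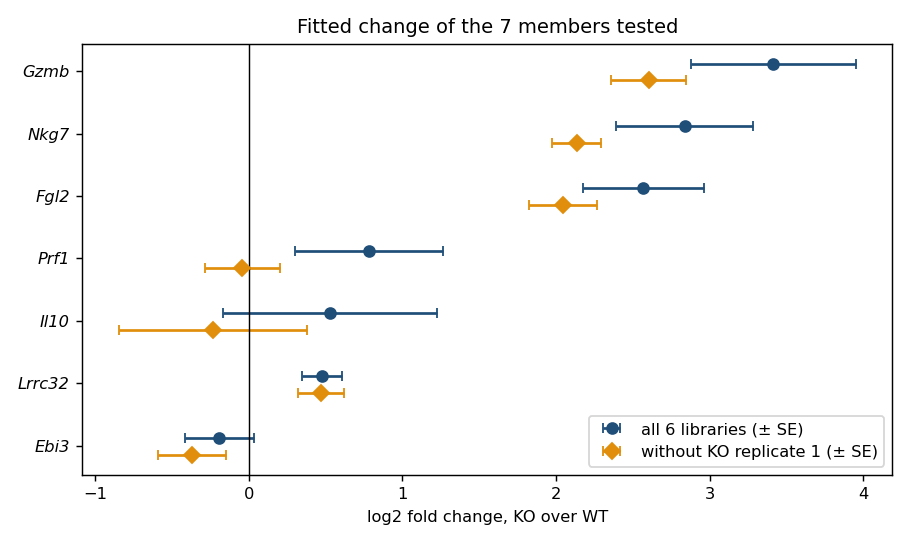
Log2 fold change (KO over WT) of the 7 genes tested, from edgeR, with bars of ± 1 SE, in all 6 libraries (blue) and without KO replicate 1 (orange). Gzmb, Nkg7 and Fgl2 lie at 2.05 or above in both fits, Lrrc32 at 0.48 and 0.47, and Prf1 and Il10 cross from 0.78 and 0.53 to -0.04 and -0.23.

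Of the 7 genes tested, Gzmb, Nkg7, Fgl2 and Lrrc32 had all KO libraries above all WT libraries and none had them below. Over all tested genes, 16.7% lay wholly above and 25.9% wholly below. KO replicate 1 was the highest of the 6 libraries for 8 of the 10 members, including Il12a, Gzma and Gzmk, which were not tested. Among the 7 tested it was highest for Il10, Fgl2, Gzmb, Prf1 and Nkg7, and over all 11658 tested genes for 2395 (20.5%).

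Levels were compared between genes per kb of annotated exon (CPM per kb). In WT libraries Lrrc32 led, at 73.9 to 102. Nkg7 (12.2 to 18.1), Il10 (4.09 to 26.7), Ebi3 (10.6 to 14.04) and Fgl2 (8.06 to 12.6) came next and overlapped in part. Gzmb followed at 3.55 to 4.92, overlapping the lowest Il10 library, then Prf1 at 2.15 to 2.54, with Gzma (0.0642 to 0.224) and Gzmk (0.0405 to 0.139) last and overlapping each other. The order differed in KO libraries, where Nkg7 reached 58.0 to 176, Fgl2 30.4 to 93.1 and Gzmb 18.8 to 81.2, all overlapping, against 110 to 114 for Lrrc32. Il10 (9.57 to 35.7) and Ebi3 (6.99 to 12.5) had lower means, though Il10 overlapped Fgl2 and Gzmb. Prf1 at 1.73 to 6.95 overlapped Gzma (0.931 to 7.53) and Gzmk (0.467 to 4.03).

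**Figure D4:**
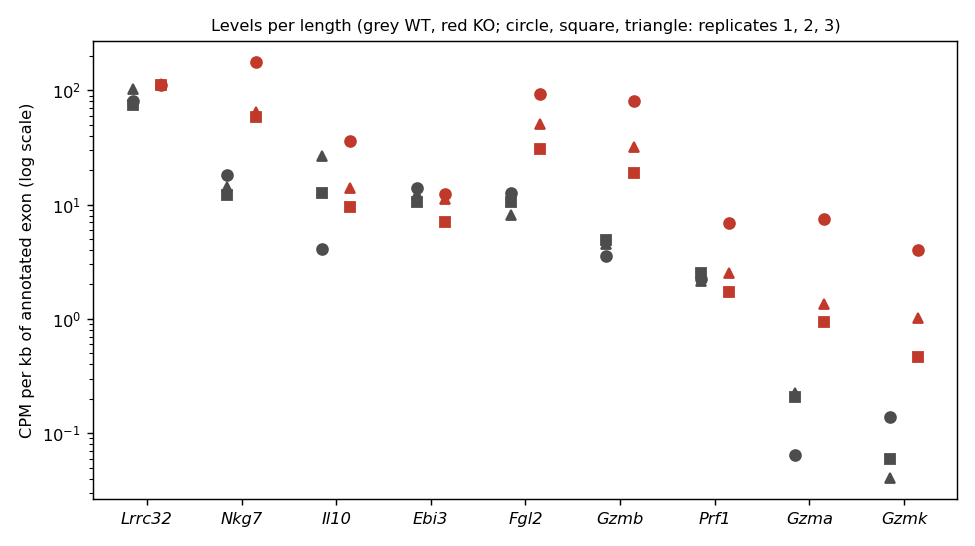
CPM per kb of annotated exon (log axis) of 9 of the 10 genes, ordered by WT mean, in 3 WT (grey) and 3 KO (red) libraries. Il12a is left out because it is at 0 in 3 libraries. Lrrc32 stays near 100 in both groups, while Nkg7, Fgl2 and Gzmb are closer to it in KO.

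The 4 tested genes whose pattern over the 6 libraries was most like that of Fgl2, by Pearson correlation of log2(CPM + 0.5), were Myo1c (r = 0.999), Iigp1 (0.998), Rrbp1 (0.998) and Steap3 (0.997). Iigp1 is an interferon-induced GTPase, and Myo1c is an unconventional myosin. A correlation over 0.9 was reached by 828 of the 11658 genes. The 6 points fall into 2 groups and share their libraries, and these values are a description.

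The partners and receptors of the mediators include the other chains of the interleukin 12 family, their receptors and the genes that process and activate TGFβ. Of 23 listed genes 15 were tested, with 6 called higher, 1 lower and 8 not called, and a median log2 fold change of 0.43 beside 0.02 over all tested genes. Of all tested genes, 11.6% were called higher and 7.27% lower. Without KO replicate 1 and with the filter at 2 libraries, the shares were 11.1% and 7.14%. The TGFβ route held changes in both directions. Furin, the protease that cuts the TGFβ precursor, rose from 112 ± 4.99 to 192 ± 10.5 CPM (log2 fold change 0.87, SE 0.08, FDR = 0.00138). Itgav, the αv chain of the integrins that release active TGFβ, rose from 113 ± 5.13 to 204 ± 42.5 CPM (0.94, SE 0.15, FDR = 0.00658). Itgb8, the β8 chain that pairs with αv, fell from 43.0 ± 3.99 to 22.8 ± 1.54 CPM (-0.84, SE 0.12, FDR = 0.00514). Tgfb1 itself stood at 254 ± 14.9 CPM in WT against 270 ± 50.4 CPM in KO (0.17, FDR = 0.420).

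On the receiving side, Il10ra, the ligand-binding chain of the Il10 receptor, rose from 149 ± 9.41 to 271 ± 38.6 CPM (log2 fold change 0.95, SE 0.12, FDR = 0.00319). Il12rb1, the chain shared by the interleukin 12 and 23 receptors, rose from 56.6 ± 10.4 to 150 ± 47.0 CPM (1.49, SE 0.24, FDR = 0.00741). The remaining 2 calls, Tgfb3 and Il12rb2, were low in WT (means of 1.71 and 1.56 CPM) and were lost in 3 of the 6 fits that left out a library. This list held 7 higher and 1 lower gene without KO replicate 1, where the log2 fold changes were 0.88 for Furin, 0.75 for Itgav, -0.79 for Itgb8, 0.82 for Il10ra and 1.26 for Il12rb1, all called. Il12rb2 had 1.84 in that fit, against 3.19 with all 6 libraries, and Tgfb3 had 1.07 against 1.45.

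The other granzymes, death ligands and inhibitors numbered 16, of which 10 were tested, with 3 called higher, 1 lower and 6 not called (median log2 fold change 0.57). Beside these counts, 11.6% of all tested genes were called higher and 7.27% lower. All 3 higher genes encode serpins, inhibitors of proteases. Serpinb9, which inhibits granzyme B, rose from 30.1 ± 1.84 to 49.5 ± 10.5 CPM (0.80, SE 0.16, FDR = 0.0157). Serpina3g rose from 86.3 ± 14.8 to 373 ± 256 CPM (2.20, SE 0.45, FDR = 0.0171), with 664 CPM in KO replicate 1 against 184 and 271, and by 1.48 (FDR = 0.00138) on the log2 scale without that library. Serpinb6a rose from 34.0 ± 3.41 to 53.0 ± 14.2 CPM (0.73, SE 0.19, FDR = 0.0355). The ligand Fasl, which kills through the receptor Fas and needs no perforin, went the other way. It fell from 8.63 ± 3.13 to 1.77 ± 0.658 CPM (-2.19, SE 0.39, FDR = 0.0112) and was called whichever library was left out. Gzmc, at 1.22 ± 0.302 CPM in WT and 2.31 ± 0.376 in KO, just missed the threshold (FDR = 0.0501), and Gzmd, Gzme, Gzmg and Gzmn had 0 counts in every library. Without KO replicate 1, Serpinb9 had 0.66, Serpinb6a 0.48 and Fasl -2.40, and the calls were kept. None of the serpin calls held when a WT library was left out.

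Granule processing and release machinery sorts, stores and secretes the granule proteins. Of 28 listed genes 26 were tested, with 5 called higher, 2 lower and 19 not called (median log2 fold change 0.37). The shares over all tested genes were 11.6% higher and 7.27% lower, and the share called lower was near that of the list. Ctsw, a cathepsin of cytotoxic lymphocytes, rose from 57.1 ± 3.36 to 110 ± 15.6 CPM (1.04, SE 0.12, FDR = 0.00255). Arl8b, which links lysosomes and granules to kinesin, rose from 77.7 ± 3.91 to 104 ± 8.98 CPM (0.50, SE 0.10, FDR = 0.0143). Lamp2, a lysosomal membrane protein, rose by 1.13 on the log2 scale (SE 0.27, FDR = 0.0294), and Srgn, the proteoglycan that packs granzymes, by 0.51 (SE 0.13, FDR = 0.0373). Sytl2, a Rab27 effector, fell from 100 ± 4.38 to 60.0 ± 9.83 CPM (-0.66, SE 0.12, FDR = 0.0114), and Ap3b1, a sorting adaptor of lysosome-related organelles, fell by 0.33 on the log2 scale (SE 0.08, FDR = 0.0241). Unc13d and Stx11, which act in granule fusion, had log2 fold changes of -0.09 (FDR = 0.648) and 0.0039 (FDR = 0.990). Without KO replicate 1, 8 genes were called higher and 2 lower. In that fit Ctsw had a value of 0.92, Arl8b 0.42, Lamp2 0.75, Sytl2 -0.63 and Ap3b1 -0.34, all called. Srgn, at 0.41 there (FDR = 0.07), lost its call in every fit that left out 1 library. Of those 6 fits, Ctsw was called in all, Sytl2 in 4, Arl8b and Lamp2 in 3 each, and Ap3b1 in 2.

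Transcription factors that act on Il10 or on granule genes numbered 15, all tested, with 6 called higher, 0 lower and 9 not called (median log2 fold change 0.36). The shares over all tested genes were 11.6% higher and 7.27% lower. Eomes, a T-box activator of Gzmb and Prf1 in CD8 T cells, rose from 5.95 ± 1.34 to 35.7 ± 5.59 CPM (2.68, SE 0.22, FDR = 0.00088) with 37.8, 40.0 and 29.4 CPM in KO replicates 1 to 3. Ahr, a ligand-activated regulator of Il10, rose from 50.9 ± 3.44 to 101 ± 4.86 CPM (1.07, SE 0.09, FDR = 0.000996). Runx3, which acts with the T-box factors in cytotoxic T cells, rose from 79.1 ± 10.6 to 156 ± 19.5 CPM (1.06, SE 0.13, FDR = 0.00324), and Stat3 rose by 0.36 on the log2 scale (SE 0.08, FDR = 0.0252). The other T-box factor, Tbx21, had 16.1 ± 0.769 CPM in WT and 29.6 ± 17.5 in KO and was not called (FDR = 0.112). Maf, an activator of Il10, was not called either (0.35, FDR = 0.340). The fit without KO replicate 1 also called 6 higher and 0 lower, though not the same 6, and in it Eomes had a log2 fold change of 2.63, Ahr 1.03 and Runx3 0.95, all called, and Stat3 0.34 (FDR = 0.0506), not called.

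Among 17 other genes of Treg cell suppression, all tested, 7 were called higher, 1 lower and 9 not called (median log2 fold change 0.76). Beside these counts, 11.6% of all tested genes were called higher and 7.27% lower. Itgae, the αE integrin chain CD103, rose from 124 ± 18.2 to 528 ± 64.0 CPM (2.18, SE 0.14, FDR = 0.000508). Il2ra, the high-affinity interleukin 2 receptor chain, rose from 777 ± 53.1 to 2501 ± 461 CPM (1.77, SE 0.14, FDR = 0.00088). Klrg1, a marker of late effector stages, rose from 49.8 ± 11.04 to 263 ± 67.0 CPM (2.49, SE 0.22, FDR = 0.0011), and Entpd1, the ectoenzyme CD39, from 48.0 ± 4.21 to 140 ± 54.9 CPM (1.63, SE 0.25, FDR = 0.00656). Nrp1, a semaphorin receptor on Treg cells of thymic origin, fell from 548 ± 18.3 to 328 ± 34.9 CPM (-0.66, SE 0.09, FDR = 0.00497). Ctla4 spread over 330 to 1177 CPM within WT and was not called (0.32, FDR = 0.642). Leaving out KO replicate 1 gave 7 higher and 2 lower, with log2 fold changes of 2.10 for Itgae, 1.85 for Il2ra, 2.42 for Klrg1, 1.26 for Entpd1 and -0.66 for Nrp1, all called.

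**Figure D5:**
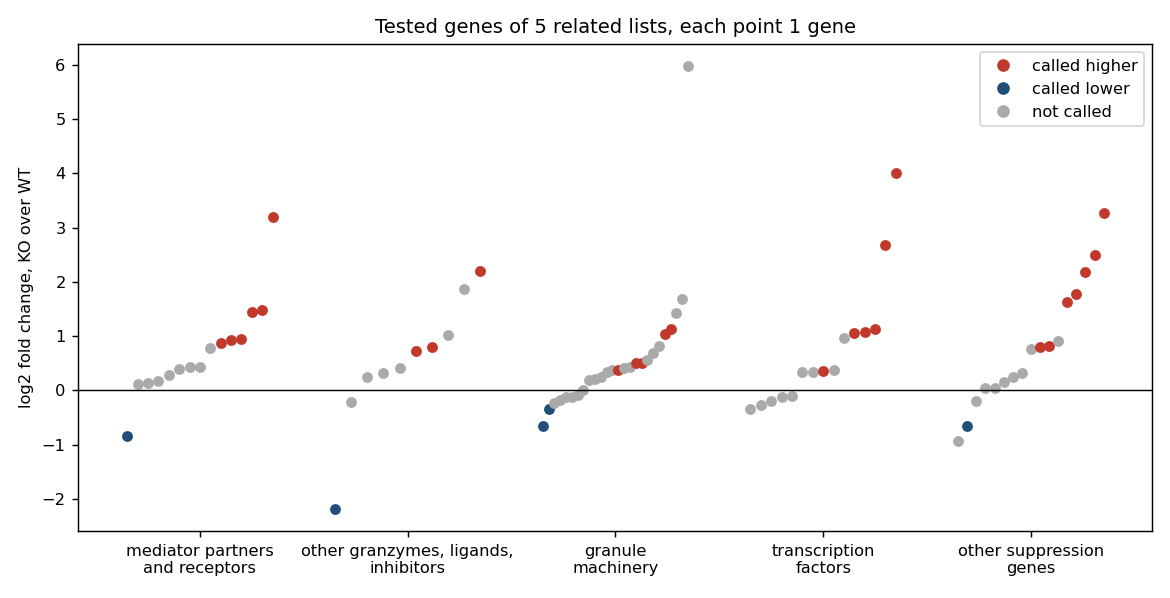
Log2 fold change (KO over WT) of each tested gene in 5 related lists, ordered within a list, with genes called higher in red, called lower in blue and not called in grey (FDR threshold 0.05, edgeR). The lowest blue point is Fasl at -2.19, and the highest grey point is Ctsh at 5.97, a gene at 104 CPM in KO replicate 1 and at most 2.23 CPM in the other libraries.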

How the data were processed

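Splenic Treg cell RNA from 6 mice was sequenced as single-end reads of 51 bases. The authors mapped the reads with HISAT to mm10, counted them per gene with featureCounts (ignoring strand), and deposited raw counts, which were used as they stand. CASAVA and edgeR are also named in the submitters' processing notes. Genes with CPM above 1 in at least 3 libraries (11658 of 24421) were compared between KO and WT in edgeR 4.0.16 (R 4.3.3), after TMM scaling, by the QLF test with Benjamini-Hochberg adjustment over all genes tested (FDR, threshold 0.05). Fold changes are KO over WT, SE is from the model, and CPM is counts scaled to a common library total. Single values were tested by an exact two-sided permutation test of 20 regroupings. At 13883069 to 24042994 counts per library, 3 counts give 0.125 to 0.216 CPM, and replicates differed by more than sampling noise. Alternatives were RLE factors, library size alone, DESeq2 1.42.0, no CPM filter, robust estimation, 3 edgeR tests together, a replicate block and leaving out each library. Both fits without KO replicate 1 that also change the filter, the ratios between members and the marker sum without Eomes were added after seeing the data. The fit was tested on simulated counts. Exon lengths and 3′ UTRs came from GENCODE vM21 (GRCm38), where 23376 of the 24421 symbols matched.

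Named genes were all 10 members and the called genes of each list (up to 4 per direction by p). Also named were the 4 genes most like the called member with the smallest p, and markers from lists whose sum moved with a member. Others (Tgfb1, Tgfb3, Il12rb2, Gzmc to Gzmn, Unc13d, Stx11, Tbx21, Maf, Ctla4, Ctsh, Cd8b1, Klrd1, Klre1, Xcl1) were named after their values were seen. Members and lists were chosen with earlier results of these data known.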

Additional observations from a re-analysis of the deposited data

How the results depend on the processing

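The calls of Gzmb, Nkg7 and Fgl2 were kept under all alternatives run, and members called higher numbered 3 to 5, with 0 lower. Lrrc32 was not called under library size alone (log2 fold change 0.40, FDR = 0.0664), without the CPM filter (0.46, FDR = 0.0723), in 5 of the 6 fits that left out a library (0.39 to 0.48), or under both added fits. Il10 turned from 0.53 to -0.24 without KO replicate 1, and to -0.23 and -0.25 in the added fits (filter at 2 libraries, no filter), with 1.32 at the other end of the leave-one-out range. Prf1 likewise turned from 0.78 to -0.0537, -0.0431 and -0.0657, with 1.124 at the other end. Ebi3 was 0.0147 without KO replicate 2, and -0.38 without KO replicate 1. The granule machinery had 3 higher genes under library size alone and without the filter, 10 under DESeq2, and 8 in both added fits. Leaving out a library gave 1 to 7 higher and 0 to 3 lower genes there, 0 to 3 higher granzymes and inhibitors, 3 to 7 higher and 0 to 1 lower transcription factors, and 4 to 8 higher and 1 to 2 lower other suppression genes. The last list had 2 lower genes under DESeq2 and in both added fits.

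The replicate block gave 1061 higher and 545 lower genes, 3 higher and 1 lower for the granule machinery, 2 lower for the other suppression genes, and ended the call of Lrrc32 (0.49, FDR = 0.0524). Libraries of the same number correlated by 0.08, -0.01 and -0.20 in their deviations. With 3 libraries in each group this cannot settle whether the numbers pair mice, and the labels do not say. Over all genes, leaving out WT replicate 1, 2 or 3 left 666, 483 and 555 higher and 356, 208 and 235 lower genes. Leaving out KO replicate 1, 2 or 3 gave 1107, 1403 and 874 higher and 868, 937 and 637 lower genes. The main fit had 1350 and 847, so leaving out KO replicate 2 raised both counts. Fewer samples enter each of these fits, and the causes of the differences were not tested. The 3 genes at or near 3 counts in WT (Il12a, Gzma and Gzmk) are limited by depth.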

Other observations

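Some genes of the related lists, chosen here after their values were seen, held most of their KO counts in KO replicate 1. The cathepsin genes Ctsh and Ctsl had 104 and 41.0 CPM there, against 1.59 and 2.23 CPM (Ctsh) and 13.7 and 9.24 CPM (Ctsl) in KO replicates 2 and 3. Ctsc, the enzyme that activates granzymes by removing their propeptide, had 276 CPM in that library against 70.2 and 97.6 CPM. Its log2 fold change was 1.43 (FDR = 0.073) with all 6 libraries in edgeR and 0.61 (FDR = 0.0252) without KO replicate 1. Zeb2, a transcription factor of late effector T cells that macrophages also express, was called higher with 87.0 CPM in KO replicate 1 and 8.86 and 7.42 CPM in the other KO libraries, against 2.29 ± 0.429 CPM in WT (SD, n = 3). Its log2 fold change was 4.01 with all 6 libraries and 1.91 (FDR = 0.00165 in edgeR) without KO replicate 1. Monocyte and macrophage markers were highest in the same library (2022 CPM), and their part in these values was not tested.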
